A study of Mus musculus with 2 samples.

Results

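The replication-dependent histone genes were described in total RNA of mouse embryonic hindbrain. They were taken as the protein-coding genes whose GENCODE M21 symbol begins with Hist1h, Hist2h, Hist3h or Hist4h, and 67 genes met this rule. Of these, 64 had a row in the deposited gene tables, out of 43346 Ensembl genes, and Hist1h2bh, Hist1h2bm and Hist2h2bb had none of their own. The 64 comprised 6 H1, 18 H2A, 15 H2B, 12 H3 and 13 H4 genes. The tissue was hindbrain of healthy B6NCrl embryos at embryonic day 13.5, male and female embryos pooled, with no treatment and no modified allele named in the labels. Both libraries, numbered as biological replicates 1 and 2, were made from 10 ng of RNA above 200 nt with ERCC spike-ins, which are control RNAs of set concentration. They share a donor label and differ in their biosample labels, so part of the spread between them can be technical. The p-values here set these libraries against counting error only and measure no biological spread. The libraries form 1 group, and the comparisons below are between histone classes, between gene lists and between the libraries.

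Histones package DNA into nucleosomes. H2A, H2B, H3 and H4 form the core around which DNA is wrapped, and H1 binds the linker DNA between cores. The replication-dependent genes lie in clusters, have no introns in their canonical form, and are transcribed in S phase to supply histones for newly made DNA. Their mRNAs mostly end in a conserved stem-loop, bound by SLBP, in place of a poly(A) tail, so a library made by priming on poly(A) can miss them. Replacement histones, such as H3.3 and H2A.Z, come from genes outside these clusters. Most, though not all, have ordinary poly(A) mRNAs and are made throughout the cell cycle.

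The stem-loop was located first, because it sets where a mature histone mRNA ends. In the GENCODE M21 transcripts on mm10, a 16-base element with a stem of 6 paired bases and a loop of 4 bases was found after the stop codon of 44 of the 64 genes. The search required perfect pairing, a stem beginning with GG and a loop beginning with TT or TC, so other forms would be missed. It began 21 to 58 bases after the stop codon, with a median of 31.5 bases. There were 8 versions of the 16 bases, shown here by 1 gene each, with Hist1h2ao added because its mRNA is nearly the same as that of Hist1h2ap. Capitals mark the stem-loop, lower-case letters the bases beside it in the transcript, and coordinates are those of the capitals on mm10.
Hist1h2ap, chr13:21833029-21833044, minus strand: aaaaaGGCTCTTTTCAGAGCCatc
Hist1h2ao, chr13:21810898-21810913, plus strand: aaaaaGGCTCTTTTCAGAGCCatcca
Hist1h2bk, chr13:22036300-22036315, plus strand: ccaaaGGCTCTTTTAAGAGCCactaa
Hist2h2ac, chr3:96220418-96220433, minus strand: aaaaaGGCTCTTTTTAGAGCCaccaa
Hist1h3g, chr13:23535889-23535904, plus strand: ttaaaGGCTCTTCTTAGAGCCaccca
Hist1h4d, chr13:23581950-23581965, plus strand: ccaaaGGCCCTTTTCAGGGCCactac
Hist1h4i, chr13:22040966-22040981, minus strand: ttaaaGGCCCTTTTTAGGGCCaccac
Hist1h4b, chr13:23757366-23757381, plus strand: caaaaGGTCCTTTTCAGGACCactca
Hist1h4a, chr13:23760800-23760815, minus strand: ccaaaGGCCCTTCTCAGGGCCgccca
The version of Hist1h2ap was the common one, held by 24 genes of the H1, H2A, H2B and H3 classes. The version of Hist1h4d was held by 7 genes, all H4, and that of Hist1h2bk by 6 genes of the H1, H2B and H3 classes. The versions of Hist1h4i and Hist1h4b were held by 2 H4 genes each, and the remaining 3 versions by 1 gene each. No version was shared between H4 and another class.

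The summed histone TPM was carried mostly by a few genes. The 64 genes summed to 1623 TPM (abundance per length, scaled to the library) in replicate 1 and 1629 TPM in replicate 2, which was 0.173% ± 0.00108 of the TPM of all Ensembl genes (SD, n = 2). They took 17966 of the estimated counts in replicate 1 and 21501 in replicate 2, or 0.0556% and 0.0569% of the counts of Ensembl genes. Detection, defined as at least 1 TPM in each library, was reached by 38 of the 64 genes. Among all protein-coding genes in the tables, 62.2% were detected. The median histone gene stood at 2.25 TPM, beside 5.07 TPM for the median protein-coding gene. Below 1 TPM on average were 20 genes, 24 lay from 1 to under 5 TPM, and 4 exceeded 100 TPM. In bulk tissue, fewer cells of a type and less RNA per cell cannot be told apart.

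Hist1h2ap, which encodes a canonical H2A, was the highest gene in both libraries. It had 767 TPM in replicate 1 and 752 TPM in replicate 2, from 6071 and 7027 estimated counts, and held 46.7% ± 0.788 of the summed histone TPM (SD, n = 2). The gene (ENSMUSG00000094777.2) lies on the minus strand at chr13:21833026-21833507 and has a single exon. Hist3h2ba, an H2B gene at chr11:58948920-58949533, followed with 232 TPM in replicate 1 and 242 TPM in replicate 2. Hist1h4d, an H4 gene at chr13:23581598-23582735, had 143 TPM in replicate 1 and 150 TPM in replicate 2 (149.84 before rounding). Hist3h2a, an H2A gene at chr11:58954685-58956830, had 114 TPM in replicate 1 and 117 TPM in replicate 2. These 4 genes made up 77.4% of the histone TPM, and the 8 highest, which also include Hist2h2aa2, Hist1h2ae, Hist1h3i and Hist1h2bc, made up 87.9%. None of the 4 was called between the libraries by the exact binomial test described below; with spike-in scaling, Hist1h2ap and Hist3h2a were called.

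**Figure D1:**
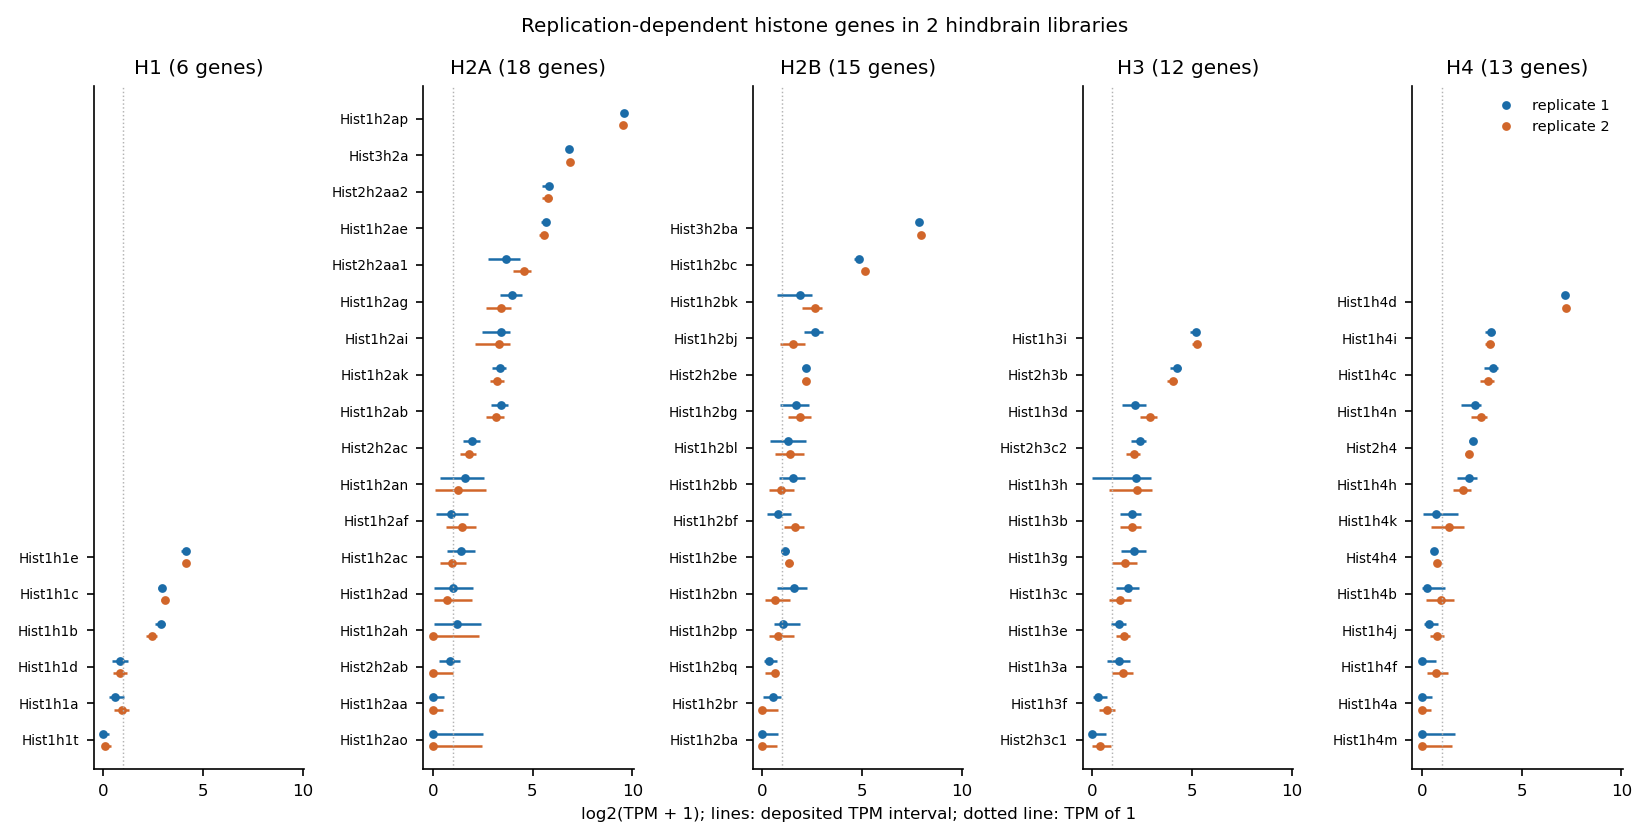
Levels of the 64 histone genes by class, as log2(TPM + 1). Points are the 2 libraries, lines are the deposited TPM intervals, and the dotted line marks a TPM of 1. Hist1h2ap stands apart at 767 and 752 TPM, and low genes have wide intervals.

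The classes differed in summed level by far more than the libraries did. H2A summed to 1044 ± 13.6 TPM, or 64.2% ± 1.00 of the histone TPM (SD, n = 2). H2B summed to 290 ± 11.3 TPM (17.8% ± 0.649), H4 to 184 ± 5.44 TPM (11.3% ± 0.305), H3 to 77.7 ± 1.17 TPM (4.78% ± 0.0597) and H1 to 31.1 ± 0.106 TPM (1.91% ± 0.0115). The order H2A, H2B, H4, H3 and H1 was the same in estimated counts and in posterior mean TPM. The lead of H2A rested on 1 gene: without Hist1h2ap, an alternative chosen after the data were seen, H2A summed to 284 ± 2.75 TPM beside 290 ± 11.3 TPM for H2B (SD, n = 2), a difference within the spread between the libraries. A class sum depends less than a single gene on how reads are divided among copies, but copies of unequal annotated length still change it.

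**Figure D2:**
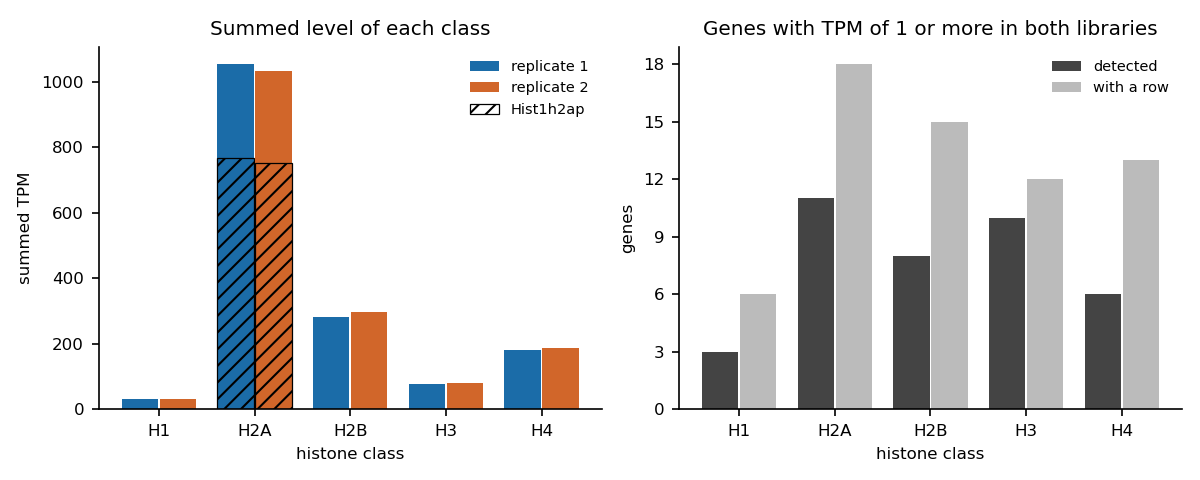
Left: summed TPM of each histone class in the 2 libraries, with the part of Hist1h2ap hatched. Right: number of genes of each class detected, beside the number with a row; H3 has 10 of 12 detected and H4 6 of 13.

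Detection ran differently from summed level. Detected were 10 of 12 H3 genes, 11 of 18 H2A genes, 8 of 15 H2B genes, 3 of 6 H1 genes and 6 of 13 H4 genes. On the log2(TPM + 1) scale, the H2A median lay 0.99 ± 0.10 above the median of the other histone genes, and the H2B median lay at -0.44 ± 0.0262 (SD, n = 2). Both kept their direction under every alternative tried. The H3 median lay at 0.38 ± 0.103 and turned to -1.21 when only detected genes were kept. The H1 median lay at 0.11 ± 0.0234 and turned to -0.0048 with a pseudocount of 0.1. The H4 median lay at -0.67 ± 0.584, from -1.08 in replicate 1 and -0.26 in replicate 2, and turned to 0.13 in CPM (counts scaled to library total, with no length correction) and to 0.34 among detected genes. Genes of a class are not replicates, so no test was run on these medians.

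Among the H1 genes, which encode linker histones, Hist1h1e led with 16.6 TPM in replicate 1 and 17.1 TPM in replicate 2. Hist1h1c had 6.87 and 7.64 TPM in replicates 1 and 2, and Hist1h1b, the lowest detected H1 gene, had 6.39 and 4.46 TPM. Hist1h1d and Hist1h1a stayed below 1 TPM in both libraries, at 0.53 to 0.91 TPM. Hist1h1t, the linker histone of spermatocytes, had no count in replicate 1 and 1 count in replicate 2.

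Among the H2A genes, Hist2h2aa2 had 55.2 TPM in replicate 1 and 53.5 TPM in replicate 2. Hist1h2ae had 50.7 TPM in replicate 1 and 46.7 TPM in replicate 2. The lowest detected H2A gene was Hist1h2an, with 2.08 and 1.44 TPM in replicates 1 and 2. Hist1h2aa, an H2A gene known from testis, and Hist1h2ao had no count in either library. For Hist1h2aa, 3 counts would have been 0.499 TPM in replicate 1 and 0.423 TPM in replicate 2, which is the limit that a count of 0 allows (counting error only).

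Among the H2B genes, Hist1h2bc ranked after Hist3h2ba, with 27.1 TPM in replicate 1 (27.15 before rounding) and 34.4 TPM in replicate 2. Hist1h2bk came next with 2.74 TPM in replicate 1 and 5.29 TPM in replicate 2, so the class falls off steeply after its leading pair. Hist1h2be was the lowest detected, with 1.21 and 1.52 TPM in replicates 1 and 2. Hist2h2be, whose protein is known from olfactory neurons, had 3.48 TPM in replicate 1 and 3.46 TPM in replicate 2, and every 50-base window of its transcript was found in no other gene. Hist1h2ba, known from testis, had no count; its deposited upper bound was 0.73 TPM for replicate 1 and 0.628 for replicate 2.

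Among the H3 genes, Hist1h3i led with 35.2 TPM in replicate 1 and 37.6 TPM in replicate 2. Hist2h3b followed with 18.1 TPM in replicate 1 and 15.8 TPM in replicate 2. Hist1h3d had 3.49 TPM in replicate 1 and 6.48 TPM in replicate 2, and Hist1h3a, the lowest detected, had 1.51 and 1.94 TPM. Translation of the annotated coding regions gave 2 H3 proteins, which differ in whether residue 96 (counted without the initiator methionine) is a cysteine, as in H3.1, or a serine, as in H3.2. The 4 genes of the cysteine form, Hist1h3a, Hist1h3g, Hist1h3h and Hist1h3i, summed to 44.5 ± 1.18 TPM. The 8 genes of the serine form summed to 33.2 ± 0.00707 TPM (SD, n = 2). The order depended on the unit: in estimated counts the cysteine form summed to 286 in replicate 1 and 352 in replicate 2, below the serine form with 341 and 412. The highest gene of the cysteine form, Hist1h3i, has a model that ends at or near the stop codon, 411 bases long.

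Among the H4 genes, Hist1h4i and Hist1h4c ranked after Hist1h4d. Hist1h4i had 10.2 TPM in replicate 1 and 9.73 TPM in replicate 2. Hist1h4c had 10.7 TPM in replicate 1 and 8.91 TPM in replicate 2. Hist1h4h, the lowest detected, had 4.09 and 3.18 TPM in replicates 1 and 2, and Hist1h4a and Hist1h4m had no count. In replicate 1, the shallower library, the deposited upper bounds were 0.441 TPM for Hist1h4a and 2.20 TPM for Hist1h4m, which shares 89.8% of its 50-base windows with Hist1h4n. All 13 annotated H4 coding regions translate to the same protein, so the H4 sum of 184 ± 5.44 TPM (SD, n = 2) is the level of mRNA for 1 protein.

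The number of distinct proteins differed between classes. The 18 H2A genes encode 9 proteins, and 9 of these genes, Hist1h2ap among them, encode the same protein and summed to 843 ± 20.0 TPM (SD, n = 2). The 15 H2B genes encode 9 proteins, of which that of Hist3h2ba comes from a single gene. The 6 H1 genes each encode a protein of their own.

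Genes of the Hist1 cluster on chromosome 13 held most of the histone TPM. The 52 Hist1 genes summed to 1169 ± 7.74 TPM, the 2 Hist3 genes on chromosome 11 to 353 ± 9.02 TPM, the 9 Hist2 genes on chromosome 3 to 104 ± 2.83 TPM, and Hist4h4 on chromosome 6 had 0.62 ± 0.141 TPM (SD, n = 2). Within Hist1, genes separated by under 100 kb were grouped into 4 blocks. The block at chr13:21715763-21837530, with 17 genes, summed to 837 ± 11.2 TPM, most of it from Hist1h2ap. The block at chr13:22035164-22043676, with 5 genes, summed to 30.4 ± 5.30 TPM. The block at chr13:23531050-23764406, with 28 genes, summed to 301 ± 8.73 TPM. The pair of Hist1h2aa and Hist1h2ba at chr13:23933773-23934851 had no count.

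Many H2A and H2B genes lie head to head and share the stretch between their starts. With starts at most 500 bases apart, 12 such pairs had both genes in the tables. The H2A gene was higher in both libraries in 6 pairs and the H2B gene in 4. Several of these pairs were low. Where H2B was higher, Hist1h2ao had no count beside 0.27 and 0.55 TPM for Hist1h2bq in replicates 1 and 2. Hist1h2ah averaged 0.645 ± 0.912 TPM beside 4.015 ± 1.80 TPM for Hist1h2bk. Hist2h2ac averaged 2.72 ± 0.311 TPM beside 3.47 ± 0.0141 TPM for Hist2h2be. Where H2A was higher, Hist1h2an averaged 1.76 ± 0.453 TPM beside 0.88 ± 0.226 TPM for Hist1h2bp. Hist1h2ao and Hist1h2bq are near copies of Hist1h2ap and Hist1h2br. Hist1h2ap averaged 760 ± 10.8 TPM and the row of its partner Hist1h2br 0.22 ± 0.311 TPM. Another transcript of Hist1h2br, filed under another row, had 2.71 TPM in replicate 1 and 1.74 TPM in replicate 2, and 99.8% of the windows of the Hist1h2br transcript are shared with Hist1h2bq. Hist1h2ae averaged 48.7 ± 2.87 TPM and Hist1h2bg 2.42 ± 0.361 TPM. The reverse held for Hist1h2ac with 1.32 ± 0.509 TPM and Hist1h2bc with 30.8 ± 5.13 TPM (SD, n = 2). Genes of a pair were thus far apart in level in several pairs, beyond the spread between the libraries.

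**Figure D3:**
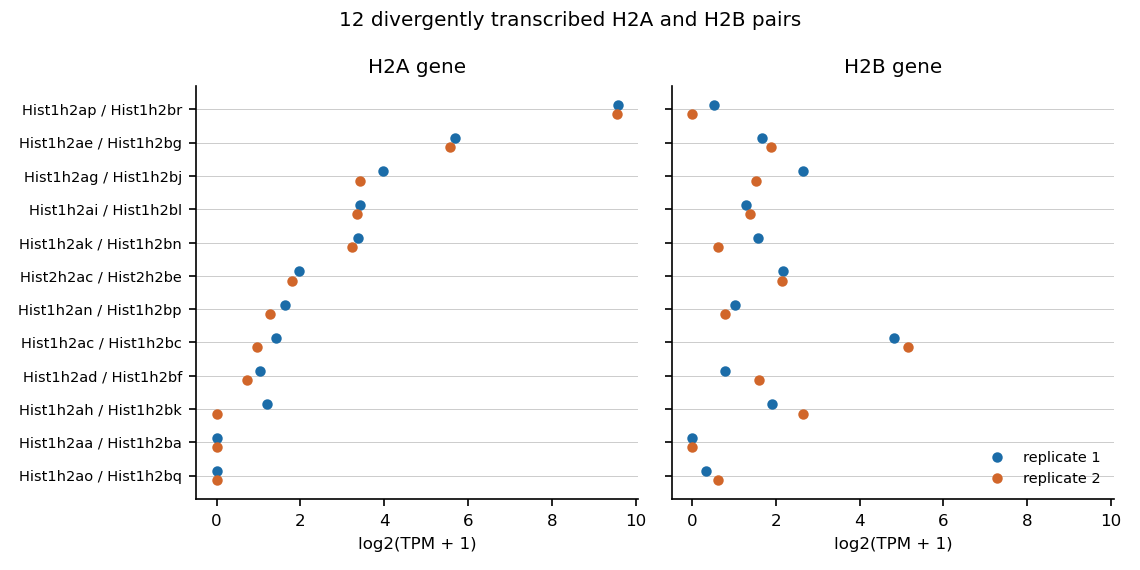
Levels of the H2A gene (left) and the H2B gene (right) of 12 divergent pairs, as log2(TPM + 1), in the 2 libraries. Hist1h2ap at 760 TPM on average faces the row of Hist1h2br at 0.22 TPM, and Hist1h2ac at 1.32 TPM faces Hist1h2bc at 30.8 TPM.

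Most of the stretch between Hist1h2ap and Hist1h2br is shown because the stretch separates the highest histone gene from a partner with far fewer assigned reads. The 2 starts lie 236 bases apart, and the printed part does not reach the start of Hist1h2br. It holds 218 bases from the RefSeq promoter table (GRCm38.p6), 5′ to 3′ on the minus strand and ending at the first base before the GENCODE start of Hist1h2ap. Capitals mark matches to CCAAT, the site bound by NF-Y, on either strand.
Hist1h2ap promoter, chr13:21833508-21833725, minus strand: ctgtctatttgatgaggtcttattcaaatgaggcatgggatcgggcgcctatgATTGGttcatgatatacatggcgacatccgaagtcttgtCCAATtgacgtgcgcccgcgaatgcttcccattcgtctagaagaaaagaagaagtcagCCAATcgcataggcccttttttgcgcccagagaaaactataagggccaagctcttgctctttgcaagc
The printed part held 3 CCAAT matches and no match to the other 4 motifs searched. RefSeq promoters, 300 bases each and reaching from upstream to just past the start, could be matched to 59 members through Entrez gene numbers. The motifs were searched on both strands, and none contains another. CCAAT was present in 50 of the 59, against 37.9% of all 27025 promoters. TATAAA, the TATA box, was present in 35, against 14.2% of all promoters. ATTTGCAT, the octamer bound by OCT1, was present in 7 H2A and 4 H2B promoters and in no other class, against 1.75% of all promoters. AAACACA, known from H1 promoters, was present in 5 of 6 H1 promoters, against 7.14% of all. It was also in 2 of 18 H2A and 1 of 13 H2B promoters. GTCCG, the core of the site bound by HINFP, was present in 12 of 12 H4 promoters, against 23.5% of all promoters. GTCCG was also in 8 of 18 H2A, 4 of 13 H2B and 1 of 10 H3 promoters. CCAAT was present in 3 of the 12 H4 promoters. Promoters of a head-to-head pair overlap, so these counts are not independent, and a match is a description of letters only.

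The annotated transcript ends bear on the levels, because TPM divides counts by annotated length. The authors' annotation (GENCODE M4) and M21 gave the same length for 44 of the 64 genes. Of these 44, 17 end within 60 bases past the stem-loop, near where a mature histone mRNA ends, and summed to 877 ± 6.85 TPM. A further 10 extend over 60 bases past it and summed to 381 ± 8.82 TPM; these include Hist3h2ba, Hist3h2a and Hist2h4. For 14 genes the annotation stops at or near the stop codon with no stem-loop, and they summed to 71.8 ± 2.25 TPM. The last 3, Hist1h2br, Hist2h2be and Hist2h3b, have over 30 bases after the stop codon with no stem-loop found. They summed to 20.7 ± 1.96 TPM (SD, n = 2). Hist2h3b has only 37 such bases, which leaves little room for a stem-loop, while Hist1h2br has 823 and Hist2h2be 2192. For 20 genes, Hist1h4d among them, the lengths differed, and for 17 of these the M4 model was the shorter.

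Near-identical copies limit what can be said of single genes. For the 44 genes with the same length in both annotations, each 50-base window was looked up in the transcripts of all other genes in the tables, on both strands. A median of 31.5% of a gene's windows was found in no other gene, and 30 of the 44 genes had under 50% such windows. Hist1h1b and Hist2h2be had only such windows, while Hist2h3c1, Hist2h3b, Hist2h2aa1 and Hist2h2aa2 had none; the last 4 also overlap annotated antisense or processed transcripts. H4 genes had a median of 59.6% and H3 genes of 19.5%.

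Hist1h2ap illustrates this limit. Only 6.93% of its windows were found in no other gene, and 93.1% were shared with Hist1h2ao. Bases 31 to 482 of the Hist1h2ap transcript are identical to bases 1 to 452 of the Hist1h2ao transcript, a run of 452 bases. Hist1h2ap has 30 further bases at its annotated 5′ end and stops 3 bases after the stem-loop, where Hist1h2ao goes on for 31 bases. Hist1h2ap received 6071 estimated counts in replicate 1 and 7027 in replicate 2, and Hist1h2ao received 0 in both. The deposited intervals of Hist1h2ap, 722 to 763 TPM in replicate 1 and 713 to 751 TPM in replicate 2, both end below its TPM of 767 and 752, since they surround a lower posterior mean of 743 and 732 TPM. The upper bound for Hist1h2ao was 4.73 TPM in replicate 1 and 4.54 in replicate 2. The sum of the pair is the firmer value, 760 ± 10.8 TPM (SD, n = 2). A second pair of this kind divided the other way: Hist1h4n, which ends 31 bases after its stem-loop, received 37.0 and 55.9 counts in replicates 1 and 2, and Hist1h4m, which ends 3 bases after it and shares a run of 366 bases, received 0.

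The deposited intervals were wide for most histone genes. In the 54 genes with at least 10 counts over both libraries, the width divided by the posterior mean had a median of 0.86, at a median of 70 counts over both libraries. Among all protein-coding genes the median was 0.186, at a median of 1666 counts. The width exceeded the posterior mean in 25 of the 54 histone genes (46.3%), against 8.46% of protein-coding genes. The widest among detected genes were those of Hist1h2an, Hist1h3h, Hist1h2bl, Hist1h2bg and Hist1h2bk, at 1.17 to 2.16 times the posterior mean. Hist1h3h, for example, had 3.59 TPM in replicate 1 with an interval from 6.5e-05 to 6.68 TPM; 79.3% of its windows were shared with Hist1h3i. Among genes with unique windows under 50%, the median relative width was 1.01 in 25 genes with a median of 69.9 counts, and in the 10 genes at or above 50% it was 0.327 with a median of 297 counts. Window share and counts moved together here, and their separate parts were not tested.

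**Figure D4:**
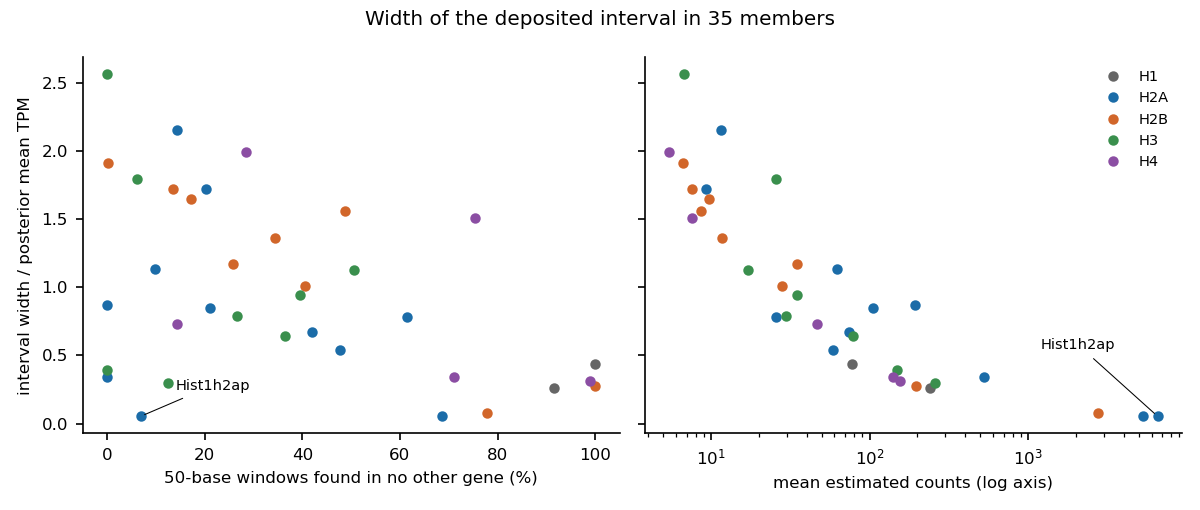
Width of the deposited TPM interval divided by the posterior mean TPM, for 35 members, against the percent of 50-base windows found in no other gene (left) and against mean estimated counts on a log axis (right). Hist1h2ap has a narrow interval, 0.0535 of its posterior mean, at 6.93% unique windows and 6549 mean counts.

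The libraries were then compared gene by gene. A two-sided exact binomial test on the rounded estimated counts, given effective library sizes, with Benjamini-Hochberg adjustment over all Ensembl genes, called 4 of 54 tested histone genes higher in replicate 2 and 3 lower. Over all tested genes, 7.07% were called higher and 5.49% lower, so the histone shares are near the background. The test compares these libraries against counting error and does not include the uncertainty of shared reads. The median absolute log2 ratio was 0.23 in the 44 histone genes with a mean of 1 TPM or more, against 0.08 in such protein-coding genes. These sets were not matched for counts. Among genes with at least 10 counts over both libraries, the median was 70 counts in histone genes and 1666 in protein-coding genes. Whether histone ratios vary more at equal counts was not tested.

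Of the 7 calls, Hist1h2bc alone also had disjoint deposited intervals. It had 27.1 TPM (interval 23.3 to 29.1) in replicate 1 and 34.4 TPM (interval 30.4 to 36.4) in replicate 2, with an adjusted exact binomial p of 0.00354 and a log2 ratio of 0.33. With spike-in scaling, which moved the median log2 ratio of all genes to -0.14, it was not called. By disjoint intervals, 1 of the 59 histone genes with a count was higher in replicate 2 and none was lower, against 2.98% higher and 3.26% lower among all genes with a count. The lower count of 0 by intervals stands beside 3 by the binomial test.

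The other 6 calls had overlapping intervals. Hist2h2aa1 had 11.9 TPM in replicate 1 and 22.7 TPM in replicate 2 (adjusted exact binomial p = 4.61e-08). The whole Hist2h2aa2 transcript is contained in it, and the pair together had 67.1 TPM in replicate 1 and 76.2 TPM in replicate 2, a log2 ratio of 0.18. Hist1h2br had 13.3 counts in replicate 1 and 0 in replicate 2, while Hist1h2bq, with a run of 1254 bases in common, had 11.5 and 27.0. The counts of that pair summed to 24.8 in replicate 1 and 27.0 in replicate 2. Hist2h3c1 had 0 and 13.5 counts in replicates 1 and 2, and all its windows also occur in the overlapping Gm20634. Hist1h2bj had 5.23 TPM in replicate 1 and 1.89 TPM in replicate 2, and Hist1h3d 3.49 and 6.48 TPM (adjusted exact binomial p = 0.00634 and 0.0191). Hist1h2ag had 14.7 TPM in replicate 1 and 9.77 TPM in replicate 2 (adjusted exact binomial p = 0.0449), a call lost when no minimum count was set.

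Set beside replacement histones, the replication-dependent genes were low. The 64 replication-dependent genes summed to 1626 ± 4.25 TPM and the 11 replacement histone genes to 7224 ± 12.3 TPM, a log2 ratio of -2.15 ± 0.00623 (SD, n = 2). The ratio was -3.36 in estimated counts and -3.06 without Hist1h2ap, so its size depends on the unit and on 1 gene by more than this SD shows. All 11 replacement genes were detected, and 3 were called higher and 3 lower in replicate 2 by the exact binomial test. Over all tested genes, 7.07% were called higher and 5.49% lower. With many counts a small ratio can be called, as for H2afz at a log2 ratio of 0.0307. H3 showed the widest gap: 77.7 ± 1.17 TPM for the replication-dependent genes, against 5102 ± 18.0 TPM for H3f3a, H3f3b and Cenpa (log2 ratio -6.04 ± 0.0269). H3f3a and H3f3b, which both encode H3.3, had means of 3046 ± 66.9 and 2010 ± 79.9 TPM (2009.62 before rounding). For H2A the sums were 1044 ± 13.6 TPM, against 1915 ± 1.56 TPM for 6 replacement genes led by H2afz (log2 ratio -0.88 ± 0.0199). For H1 they were 31.1 ± 0.106 TPM, against 207 ± 4.09 TPM for H1f0 and H1fx (log2 ratio -2.74 ± 0.0335; SD, n = 2 throughout). How completely RNAs without a poly(A) tail entered these libraries was not tested. Of 8 RNAs without a poly(A) tail, 5 were detected, led by Rn7s1 and Rn7s2, near-identical signal recognition particle RNAs with means of 13805 TPM each and wide intervals, and by Rn7sk at 381 TPM. Not detected were Rny1 with 0 and 2 counts in replicates 1 and 2, Rny3 with none, and Terc with 5 and 4. The input was RNA above 200 nt, so the absence of a shorter RNA does not measure capture without a poly(A) tail.

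**Figure D5:**
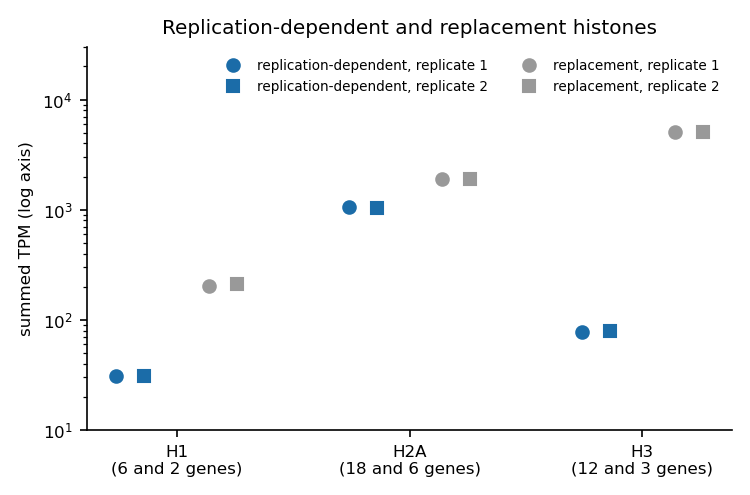
Summed TPM on a log axis of replication-dependent genes (blue) and replacement genes (grey) of the H1, H2A and H3 classes, in replicate 1 (circles) and replicate 2 (squares). The sums are 31.1 and 207 TPM for H1, 1044 and 1915 TPM for H2A, and 77.7 and 5102 TPM for H3.

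The genes that make, end and degrade histone mRNA were measured at moderate levels. All 6 genes of histone transcription were detected, at 7.31 to 42.2 TPM on average, with Casp8ap2 the highest; Npat, the coactivator that cyclin E and CDK2 act on, averaged 10.1 ± 0.771 TPM (SD, n = 2). Of 11 genes of histone 3′ end processing, 10 were detected, and they summed to 556 ± 3.88 TPM (SD, n = 2). Slbp, which binds the stem-loop, averaged 107 ± 2.73 TPM, Ncbp2 90.8 ± 2.95 TPM and Ncbp1 72.6 ± 1.86 TPM (SD, n = 2); Zfp473, of the U7-dependent machinery, was at 0.74 and 0.63 TPM in replicates 1 and 2. All 5 matched genes of histone mRNA decay were detected, from Dcp2 at 3.77 ± 0.0495 TPM to Exosc10 at 69.1 ± 3.63 TPM (SD, n = 2). None of the genes of these 3 lists was called between the libraries by the exact binomial test. The shares over all tested genes were 7.07% called higher and 5.49% lower in replicate 2. With so few genes, the lack of calls was not read as a trait of these lists. Among all protein-coding genes, 62.2% were detected.

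Genes that go with histone supply and S phase were also detected throughout, beside 62.2% of all protein-coding genes. All 14 histone chaperone genes were detected, with Rbbp4, Nap1l4 and Atrx highest at 298, 259 and 222 TPM on average; by the exact binomial test, Rbbp4 and Hat1 were called higher in replicate 2 and Chaf1b lower. All 16 S phase genes were detected and summed to 621 ± 22.2 TPM (SD, n = 2), led by Pcna, the sliding clamp, at 95.0 ± 2.67 TPM. Rrm2, a ribonucleotide reductase subunit, was lower in replicate 2 with 73.3 TPM in replicate 1 and 58.3 TPM in replicate 2 (adjusted exact binomial p = 4.71e-14), and was the only S phase gene called. Of 6 cycling markers, 4 were called lower and 1 higher in replicate 2 by the same test. Over all tested genes, 5.49% were called lower and 7.07% higher, and many counts make a call easier. The summed histone TPM was 1623 in replicate 1 and 1629 in replicate 2.

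The labelled tissue was checked on marker genes. All 8 hindbrain markers were detected and 1 of 5 forebrain markers, Lhx2. All 6 progenitor, 5 neuron and 6 erythroid markers were detected, and 0 of 6 testis germ cell markers, beside at most 1 count for Hist1h1t, Hist1h2aa and Hist1h2ba. In replicate 2, 5 of the 6 erythroid markers were called higher and 1 lower, and 3 of the 5 neuron markers were called lower. Over all tested genes, 7.07% were called higher and 5.49% lower. The test holds counting error only, so genes with many counts can be called on small ratios. Dcx, for example, was called at a log2 ratio of -0.0385. The part of these markers in the histone values was not tested. Total depth was 33080194 estimated counts in replicate 1 and 38756411 in replicate 2.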

How the data were processed

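Total RNA of 2 hindbrain libraries had been quantified by the authors against mm10 with GENCODE annotation M4, per the note deposited with the files. The authors deposited estimated counts (also called expected counts) per gene and transcript, which need not be whole. TPM, as deposited by the authors, is scaled over every row, spike-ins among them. The deposited bounds of TPM and FPKM intervals are of unstated level and surround a posterior mean TPM. The percent of a gene's TPM held by each transcript was also deposited by the authors. Aligner, counter and strandedness were not given in the sources used, so a gene and its overlapping or antisense partner are uncertain: 10 members overlap another gene with a row.

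Names, positions and transcripts came from GENCODE M21 (the same build), Entrez numbers and promoters from its metadata and RefSeq. The members, lists and motifs were chosen with earlier results of these data known. Rounded counts were scaled by edgeR 4.0.16 (TMM; R 4.3.3); with 1 group no quasi-likelihood test exists. Exact binomial tests (SciPy 1.17.1) took genes with 10 or more counts summed over both libraries, at an adjusted p of 0.05, and were tested on simulated data. Limits at 0 use 3 counts. Ratios are replicate 2 over replicate 1, as log2(TPM + 1), which understates changes of low genes. DESeq2 1.42.0 size factors, totals, spike-ins, other thresholds, pseudocounts and units were alternatives. Named genes are the 3 highest and the lowest detected of each class, those called, those without a count, the 5 widest intervals and the testis genes. Of the companion lists, some genes that the rule would name are given only by counts. Python 3.11.15, numpy 2.4.6, pandas 2.3.3 and matplotlib 3.10.9 were used.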

Additional observations from a re-analysis of the deposited data

Results flagged for a closer look

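Some histone transcripts stand outside the 64 gene rows, because the M4 tables file them under another gene. Each exceeded the limit of 3 counts that a count of 0 allows in at least 1 library. A second annotated transcript of Hist1h2br had 15.81 counts in replicate 1 and 11.97 in replicate 2 (2.71 and 1.74 TPM). The transcript of Hist2h2bb, whose gene has no row of its own, had 15.75 and 14.95 counts in replicates 1 and 2 (2.70 and 2.17 TPM), under Gm42743. A second annotated transcript of Hist1h2bq had 1.89 and 5.51 counts in replicates 1 and 2. A second annotated transcript of Hist2h3c1, filed under Gm20634, had 0.09 and 10.48 counts in replicates 1 and 2.

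Among annotated histone pseudogenes, Hist3h2bb-ps had 21.96 counts in replicate 1 and 23.24 in replicate 2 (2.91 and 2.60 TPM). Hist1h2aj had 0 counts in replicate 1 and 45.36 in replicate 2 (7.35 TPM), with deposited intervals up to 3.89 TPM in replicate 1 and from 0.677 to 12.4 TPM in replicate 2, so the intervals overlap. Whether these counts are reads of near-identical coding genes was not tested.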

How the results depend on the processing

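No paired analysis was possible because the 2 libraries form 1 group. Over 15 results and 77 alternative values, 46 kept their direction and stayed within the spread between the libraries, or within 1.5 times of a count, 27 moved further and 4 reversed. For shares, medians and ratios, a single library always lies within this SD of the mean of 2 libraries. The values without 1 library are among the 46, and their staying within the spread was therefore fixed in advance. Detection at 5 TPM or more left 19 genes, and at 0.5 TPM or more it gave 49. Posterior mean TPM of 1 or more in both libraries gave 46 genes. With the lower bound of the deposited interval at 1 TPM or more in both, 27 genes were left. In estimated counts, the histone share was 0.0563%, and the class shares were 2.96% for H1, 67.8% for H2A, 3.52% for H3 and 7.44% for H4. In posterior mean TPM the histone share was 0.169% and the H1 share 1.93%. Without Hist1h2ap (chosen after seeing the data), the shares were 3.59% for H1, 32.8% for H2A, 33.4% for H2B, 8.97% for H3 and 21.2% for H4. Class medians against the other histone genes (log2) moved as follows. With a pseudocount of 0.1, H1 turned to -0.0048, and H2A, H2B and H3 were 1.23, -0.62 and 0.52. In CPM, H4 turned to 0.13, and H1, H2A, H2B and H3 were 0.28, 0.36, -0.29 and 0.13. In posterior mean TPM, H1 was 0.064 and H2B -0.38. Among detected genes, H3 and H4 turned to -1.21 and 0.34, and H1, H2A and H2B were 0.27, 1.16 and -1.13. The log2 ratio to replacement histones was -3.36 in counts and -3.06 without Hist1h2ap. Causes were not tested. The H4 median was -0.26 without replicate 1 and -1.08 without replicate 2. Leaving out a library gave 41 to 44 detected genes, 0.172% to 0.173% of TPM, and class shares of 1.90% to 1.92% (H1), 63.5% to 64.9% (H2A), 17.4% to 18.3% (H2B), 4.74% to 4.82% (H3) and 11.1% to 11.5% (H4). The binomial test called 5 to 10 genes under other scalings and minimums; with no minimum it called 7, of which 6 were shared, with Hist1h2ag lost and Hist1h2ah added, and with at least 50 counts Hist1h2br and Hist2h3c1 were not tested. Spike-in scaling shifted the median log2 ratio of all genes by -0.14 and called 10 genes, 3 higher and 7 lower in replicate 2, of which 6 were among the 7 called before; Hist1h2bc was not called, and Hist1h1b, Hist1h2ae, Hist1h2ap and Hist3h2a were added. Low counts limit single genes: 20 of the 64 averaged under 1 TPM.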
